A study of Mus musculus with 4 samples.

Results

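Mucins and the genes that shape goblet cells were followed in the embryonic mouse lung at E16.5. The set held 10 genes chosen by symbol, and 9 of them were among the 22556 genes of the deposited table. They were the gel-forming mucins Muc5b and Muc5ac, the membrane mucins Muc1, Muc4 and Muc20, the transcription factors Spdef and Foxa3, and the epithelial products Agr2 and Reg3g. Muc16, a further membrane mucin, was named by the same rule and was not analysed here. RNA sequencing compared 2 Control lungs (Shh-Cre; Stk11F/+) with 2 Shh-Stk11 lungs (Shh-Cre; Stk11F/F), labelled C57BL/6, although the methods of the study described mixed backgrounds. Both groups carried the Cre driver and at least 1 floxed allele of Stk11, a kinase gene of energy sensing and cell polarity, so no lung without Cre was compared. The driver acts in the Shh-expressing endoderm that forms the lung epithelium, and the other cells of the lung were in the libraries too. Levels are in FPKM, the reads on a gene scaled to its transcript length and to the mapped reads of the library.

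Airway mucus is built from large glycoproteins. Muc5b and Muc5ac are secreted by club and goblet cells and form polymers, whereas membrane mucins stay anchored at the apical surface of epithelial cells. Spdef, an ETS factor, and Foxa3, a forkhead factor, drive goblet differentiation. Agr2 encodes a disulfide isomerase of the endoplasmic reticulum that mucin folding requires, and Reg3g encodes an antimicrobial lectin of barrier epithelia. Goblet cells are rare in the airways of healthy mice, and Muc5b is the main gel-forming mucin there.

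Promoters are shown for 4 genes whose levels did not overlap between the groups and which had an entry in the set of RefSeq promoter sequences used here (GRCm38.p6). Each runs 5′ to 3′ on the strand of the gene, from 250 bases before to 50 bases after the annotated start. Capitals mark matches, on either strand, to the letters of known binding motifs. These were TGTTTAC for forkhead factors with its common variant TATTTAC, the CRE half-site spelled TGACG, the AP-1 site spelled TGANTCA, the STAT site spelled TTCNNNGAA, the ETS core spelled CCGGAT and the TATA-box spelled TATAAA. No match overlapped another.
Foxa3, chr7:19023490-19023789, minus strand: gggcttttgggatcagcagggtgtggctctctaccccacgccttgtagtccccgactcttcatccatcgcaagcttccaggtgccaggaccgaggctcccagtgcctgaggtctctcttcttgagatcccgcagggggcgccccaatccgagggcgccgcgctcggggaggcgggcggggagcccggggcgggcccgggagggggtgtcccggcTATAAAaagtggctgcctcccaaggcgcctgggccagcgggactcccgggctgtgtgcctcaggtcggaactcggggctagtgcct
Spdef, chr17:27728902-27729201, minus strand: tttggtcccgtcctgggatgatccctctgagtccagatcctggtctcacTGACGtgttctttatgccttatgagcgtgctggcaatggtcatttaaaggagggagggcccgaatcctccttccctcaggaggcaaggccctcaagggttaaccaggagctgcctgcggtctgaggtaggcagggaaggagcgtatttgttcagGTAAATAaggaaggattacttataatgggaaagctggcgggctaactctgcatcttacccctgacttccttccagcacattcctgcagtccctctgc
Reg3g, chr6:78468825-78469124, minus strand: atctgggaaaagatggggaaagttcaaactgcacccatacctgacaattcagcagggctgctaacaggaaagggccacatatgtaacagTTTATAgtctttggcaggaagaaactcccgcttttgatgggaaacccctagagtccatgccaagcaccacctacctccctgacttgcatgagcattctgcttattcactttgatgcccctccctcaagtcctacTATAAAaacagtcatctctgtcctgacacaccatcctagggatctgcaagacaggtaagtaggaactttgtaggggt
Agr2, chr12:35992675-35992974, plus strand: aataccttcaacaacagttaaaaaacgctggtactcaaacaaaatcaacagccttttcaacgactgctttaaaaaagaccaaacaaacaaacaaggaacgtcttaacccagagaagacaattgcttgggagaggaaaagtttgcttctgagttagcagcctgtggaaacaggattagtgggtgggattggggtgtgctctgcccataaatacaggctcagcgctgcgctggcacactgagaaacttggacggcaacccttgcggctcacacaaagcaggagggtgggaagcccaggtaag

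The Foxa3 promoter held a TATA-box match at −36, counted from the start, and the Reg3g promoter held matches at −161 and −27. The letters TATAAA occurred in 13.6% of 32851 promoters of this length. The Spdef promoter held a forkhead match (TATTTAC, 3.04% of promoters) at −47 and a CRE half-site (20.8%) at −201. None of the letters searched was in the Agr2 window. The remaining shares were 3.65% for TGTTTAC, 7.81% for AP-1, 8.30% for STAT and 6.04% for ETS. The promoters of Muc5b and Muc5ac, which carried the largest differences among the 5 mucins of the set, were not analysed here.

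Stk11, the targeted gene, was at 44.0 and 45.5 FPKM in the Control lungs and at 29.5 and 26.0 FPKM in the Shh-Stk11 lungs. The change of −0.69 on the log2 scale had an adjusted p of 0.0519 in limma, just above the threshold of 0.05. The adjusted p was 0.0499 with a filter at a mean of 0.5 FPKM in place of 0.1, and 0.106 without a filter. The level of Stk11 includes the cells outside the epithelium. The libraries held an estimated 30.8 to 38.0 M reads. Xist and Y-linked genes showed 3 female lungs and 1 male lung, Shh-Stk11 2, so sex was not balanced between the groups and its part in the results was not tested. All 7 markers of general lung epithelium were detected, and their summed level was 959 and 999 FPKM in Control and 1054 and 1212 FPKM in Shh-Stk11. Of 15501 genes tested, 117 rose and 179 fell at an adjusted p under 0.05.

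None of the 9 mucin and goblet genes passed this threshold, which 1.91% of all tested genes passed (0.755% higher and 1.15% lower in Shh-Stk11). An unadjusted p under 0.05 was reached by 5 of the 9, with 4 higher and 1 lower in Shh-Stk11, against 15.1% of all tested genes (7.81% higher, 7.25% lower). Muc5b and Muc5ac met the filter of a mean of 0.1 FPKM only through their level in Shh-Stk11, so these counts are a description and lend no support. The groups did not overlap in 6 genes, higher in 5 (Muc5b, Muc5ac, Spdef, Foxa3 and Reg3g) and lower in 1 (Agr2), against 46.5% of all tested genes (19.5% higher, 27.0% lower). The median log2 change was 0.42 over the 9 genes and −0.05 over all tested genes. With Muc5b and Muc5ac among the 9, the counts without overlap and this median are a description too. In whole lung, a change in the number of cells of a type cannot be told apart from a change in the RNA of each cell.

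**Figure D1:**
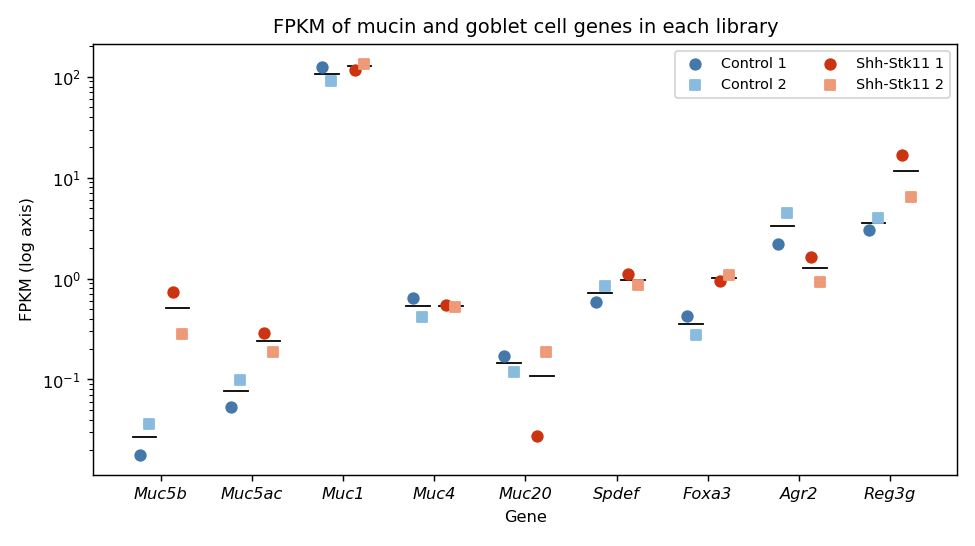
FPKM (log axis) of the 9 genes in each library, Control in blue and Shh-Stk11 in red, with circles for replicate 1, squares for replicate 2 and a line at the mean of each group. Muc5b is lowest in both Control lungs, Muc20 is split furthest between the Shh-Stk11 lungs on this axis, and Muc1 lies far above all others.

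Muc5b, the main gel-forming mucin of mouse airways, was at 0.0178 and 0.0364 FPKM in Control and at 0.737 and 0.285 FPKM in Shh-Stk11. Both Shh-Stk11 lungs lay well above both Control lungs, and Shh-Stk11 1 was the higher of the pair. The reads behind these levels were an estimated 10 and 17 in Control and 335 and 139 in Shh-Stk11. The ratio of the group means was 18.9, and it was 10.5 without Shh-Stk11 1 and 28.8 without Control 2. The log2 change was 2.16 ± 0.45 (SE), with a 95% interval from 1.09 to 3.24 and an adjusted p of 0.078 in limma. The change was computed on log2(FPKM + 0.1), which understates differences at such low levels, and it was 3.71 with 0.01 and 0.54 with 1 in place of 0.1. Without Shh-Stk11 2, the male lung, the adjusted p was 0.0371 with 1 Shh-Stk11 lung left, which is then assumed to vary like the Control lungs, and it was 0.183 to 0.272 on leaving out any other library.

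Muc5ac, the gel-forming mucin of goblet cell metaplasia, was at 0.0537 and 0.0991 FPKM in Control and at 0.289 and 0.188 FPKM in Shh-Stk11. The groups did not overlap here either, and the order of the 4 libraries was the same as for Muc5b. The log2 change was 0.94 ± 0.36 (SE), with an adjusted p of 0.288, and it was 1.55 with 0.01 and 0.20 with 1 in place of the added 0.1. Within each library the ratio of Muc5b to Muc5ac, which does not depend on the scaling of the library, was 0.331 and 0.368 in Control and 2.55 and 1.51 in Shh-Stk11. Muc5ac was thus the higher of the pair in Control lungs and Muc5b in Shh-Stk11 lungs. Both levels were low in absolute terms, with no library above 1 FPKM.

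Muc1, a membrane mucin of lung epithelium, supplied 98.7% to 99.3% of the summed FPKM of the 5 mucins in every library. It stood at 124 and 90.0 FPKM in Control and at 118 and 135 FPKM in Shh-Stk11. The groups overlapped, and the log2 difference of 0.26 had a 95% interval from −0.19 to 0.70 (adjusted p = 0.578). It was 0.03 without Control 2 and 0.49 without Control 1. Muc4, the large ErbB2-binding mucin, was at 0.648 and 0.415 FPKM in Control and at 0.552 and 0.521 FPKM in Shh-Stk11. The Shh-Stk11 lungs fell between the Control lungs, with a log2 difference of 0.04, an interval from −0.66 to 0.74 and an adjusted p of 0.967. The sign of this difference was not stable: it was −0.19 once the trend with transcript length and GC content was removed and −0.23 without Control 2.

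Muc20, a small membrane mucin next to Muc4 on chromosome 16, was at 0.169 and 0.119 FPKM in Control and at 0.0276 and 0.189 FPKM in Shh-Stk11. The Shh-Stk11 lungs lay on either side of the Control lungs. The value of Shh-Stk11 1 rested on an estimated 3 reads, against 13 to 22 in the other libraries. The log2 difference was −0.34, with an interval from −1.49 to 0.81 and an adjusted p of 0.787, and it was 0.25 without Shh-Stk11 1. The 3 membrane mucins overlapped between the groups, while Muc5b and Muc5ac did not. The difference between these kinds of mucin was not tested.

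Foxa3, the goblet-promoting forkhead factor, was at 0.430 and 0.276 FPKM in Control and at 0.954 and 1.08 FPKM in Shh-Stk11. Its Shh-Stk11 lungs lay close together and clear of both Control lungs. The log2 change was 1.32 ± 0.28 (SE), with a 95% interval from 0.65 to 1.999 and an adjusted p of 0.0821, and it was 0.58 with 1 in place of the added 0.1. Spdef, the ETS factor needed for goblet cells, was at 0.584 and 0.841 FPKM in Control and at 1.10 and 0.855 FPKM in Shh-Stk11. Here Control 2 and Shh-Stk11 2 nearly met. The log2 difference was 0.42 ± 0.27 (SE), with an interval from −0.24 to 1.08 and an adjusted p of 0.539, and it ranged from 0.19 without Control 1 to 0.65 without Control 2.

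Reg3g was at 3.01 and 4.02 FPKM in Control and at 16.9 and 6.42 FPKM in Shh-Stk11. Both Shh-Stk11 lungs were higher than both Control lungs, most of all Shh-Stk11 1, as for Muc5b. The log2 change was 1.55 ± 0.43 (SE), with an interval from 0.53 to 2.58 and an adjusted p of 0.149. It was 2.24 without Shh-Stk11 2 (adjusted p = 0.0191, on 1 Shh-Stk11 lung assumed to vary like the Control lungs) and 0.86 without Shh-Stk11 1, so the size depended on which lung was kept. Of the 6 other Reg genes in the table, none reached the filter of 0.1 FPKM, and 4 were listed at 0 in every library.

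Agr2 was lower in Shh-Stk11, with 2.18 and 4.47 FPKM in Control and 1.64 and 0.925 FPKM in Shh-Stk11. The groups did not overlap, and Control 2 stood apart at the top. The log2 change was −1.27 ± 0.40 (SE), with an interval from −2.23 to −0.32 and an adjusted p of 0.195. Without Control 2 it was −0.77. Agr3, a related isomerase gene beside Agr2 on chromosome 12, was at 3.78 and 4.19 FPKM in Control and at 1.11 and 1.52 FPKM in Shh-Stk11. Agr3 fell by 1.54 on the log2 scale (adjusted p = 0.0294), a call lost without a filter and on leaving out any library but Shh-Stk11 2. The ratio of Agr2 to Agr3 was 0.579 and 1.07 in Control and 1.48 and 0.607 in Shh-Stk11, so it separated the lungs of a group more than the groups.

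**Figure D2:**
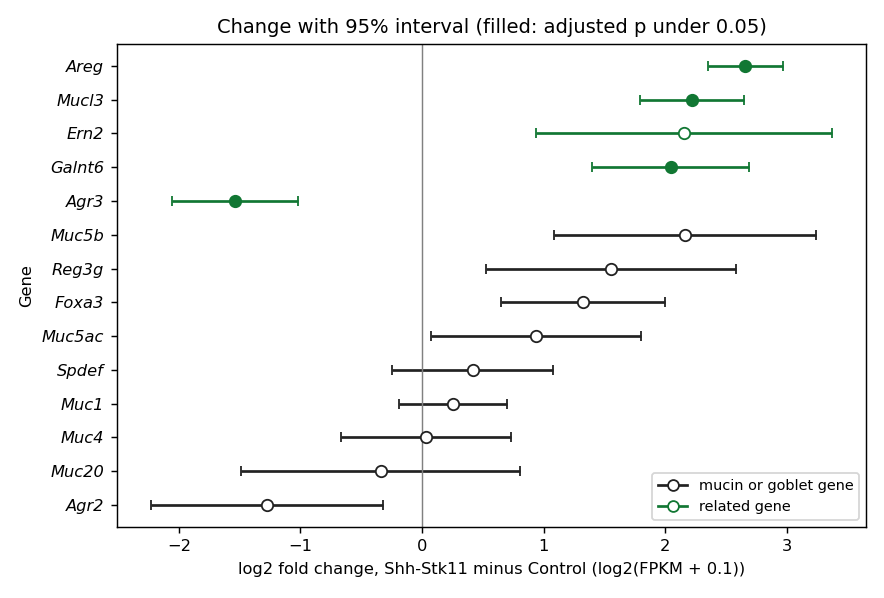
Log2 change, Shh-Stk11 minus Control on log2(FPKM + 0.1), with its 95% interval from limma, for the 9 genes in black and 5 related genes in green; filled points passed an adjusted p of 0.05. The intervals of Muc5b, Reg3g, Foxa3 and Muc5ac lie above 0 and that of Agr2 below 0, yet none of the black points is filled.

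The order of the levels, which FPKM allows across genes of different length, differed between the groups at its lower end. In Control lungs Muc1 led, followed by Reg3g and Agr2, whose ranges overlapped, and then by Spdef, Muc4 and Foxa3, each overlapping the next. Muc20, Muc5ac and Muc5b followed, each below the one before without overlap. In Shh-Stk11 lungs Muc1 and Reg3g led without overlap. Agr2, Foxa3 and Spdef came next and overlapped in turn, as did Muc4, Muc5b, Muc5ac and Muc20 below them. Muc5b was therefore the lowest of the 9 genes in Control and not separable from Muc4 in Shh-Stk11.

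The genes whose pattern over the 4 libraries was nearest to that of Muc5b, by the distance of their centred log2 levels, were Ern2, Macc1, Selenbp2, Krt79 and Reg3g, out of 14653 protein-coding genes. Reg3g was thus the nearest of the goblet genes, at place 5, whereas Muc5ac stood at place 142. Ern2 encodes IRE1β, an endoplasmic reticulum stress sensor of mucus-producing epithelia. It was at 0.00948 and 0.103 FPKM in Control and at 0.889 and 0.348 FPKM in Shh-Stk11. That Shh-Stk11 1 was the highest and the groups did not overlap follows, for each of these genes, from the choice by likeness to Muc5b. The log2 change was 2.16 ± 0.50 (SE, adjusted p = 0.101), between 0.60 and 3.596 over the alternatives, and the lower Control value rested on an estimated 1 read. Like Muc5b, Ern2 met the filter on mean FPKM only through its level in Shh-Stk11. Macc1, a gene named for its association with metastasis, had a log2 change of 2.16 (adjusted p = 0.0133). That of Krt79, a keratin, was 1.93 (adjusted p = 0.0271). Selenbp2 had a log2 change of 1.57 (adjusted p = 0.145). This likeness is a description over 4 values from 2 libraries a group. The p-values of these genes rest on the values that chose them and lend no support.

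Transcript length moved with the groups, and Muc5b and Muc5ac are among the longest mouse transcripts. With the genes divided by length into 10 bins of about equal size, the median log2 difference of Shh-Stk11 from Control went from −0.18 in the shortest bin to 0.18 in the longest. Shh-Stk11 1 differed more, at 0.27 in the longest bin, than Shh-Stk11 2, at 0.10. The libraries of a group also differed along length, with −0.20 between Control 2 and Control 1 and −0.17 between Shh-Stk11 2 and Shh-Stk11 1 in the longest bin. The longest annotated coding transcripts were 14964 bases for Muc5b, 10752 for Muc5ac and 11277 for Muc4, against 771 for Reg3g and 784 for Agr2. With the trend on length and GC content removed, the log2 change of Muc5b was 1.92 (adjusted p = 0.125) that of Muc5ac was 0.75 (adjusted p = 0.431) and that of Foxa3, with 2037 bases, was 1.45 (adjusted p = 0.094). Reg3g stood at 1.67 (adjusted p = 0.23) and Agr2 at −1.18 (adjusted p = 0.295) in that fit.

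**Figure D3:**
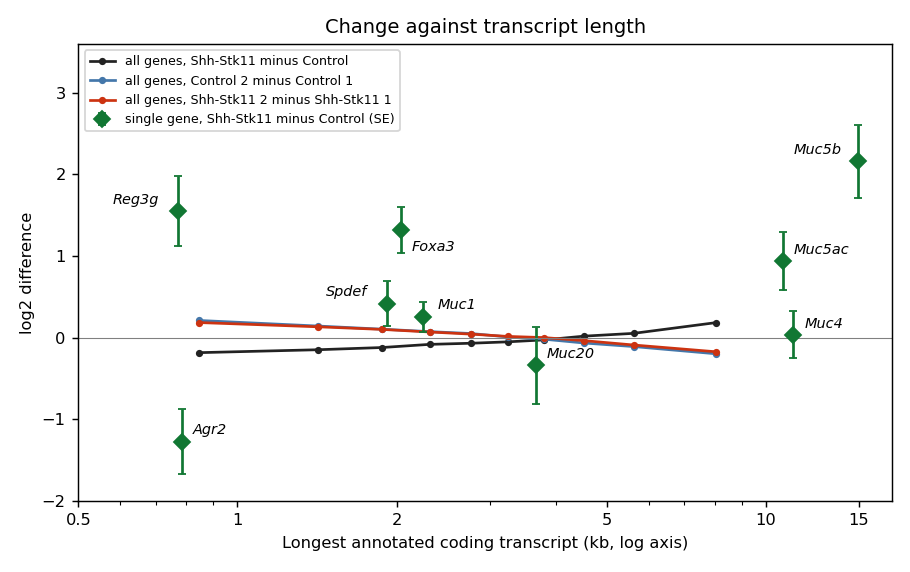
Log2 difference against the length of the longest annotated coding transcript (kb, log axis), as medians over 10 length bins of all genes for the groups (black) and for replicates within Control (blue) and Shh-Stk11 (red), with the 9 genes as green diamonds with SE. The black line runs from −0.18 to 0.18, while Muc5b lies at 2.16 and the likewise long Muc4 near 0.

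Other genes of mucus production were taken as lists. Of 8 other mucin genes in the table, 1 passed the filter of a mean of 0.1 FPKM. This was Mucl3 (listed as Dpcr1), an epithelial mucin-like gene, at 2.71 and 2.34 FPKM in Control and at 10.8 and 13.5 FPKM in Shh-Stk11. Mucl3 rose by 2.22 ± 0.18 (SE) on the log2 scale, with an adjusted p of 0.00536. Its adjusted p was 0.0535 without Control 1 and 0.0696 without Control 2. In absolute FPKM its gain was larger than that of Muc5b.

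Of 19 tested enzymes of O-glycosylation, which attach the sugar chains of mucins, 1 rose, 0 fell and the median log2 change was 0.17, which went to 0.00 with the length and GC trend removed and to 0.08 without Shh-Stk11 1. Galnt6, which starts such chains, was at 0.315 and 0.207 FPKM in Control and at 1.35 and 1.40 FPKM in Shh-Stk11. It rose by 2.05 on the log2 scale (adjusted p = 0.0233), but the adjusted p was between 0.0704 and 0.154 whenever a library was left out. It was 0.0738 without a filter, and the change was 0.91 with 1 added in place of 0.1. Galnt5, chosen after its values were seen, had a log2 change of 1.001 (adjusted p = 0.078) without overlap of the groups. The remaining enzymes ranged from −0.38 for St6galnac2 to 0.65 for St3gal1.

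Among 16 tested regulators upstream of goblet differentiation, 1 rose and 0 fell, with a median log2 change of 0.14 that went to 0.04 with the length and GC trend removed and to 0.05 without Control 2. Areg, the EGF receptor ligand amphiregulin, was at 11.0 and 10.9 FPKM in Control and at 75.6 and 64.4 FPKM in Shh-Stk11. It rose by 2.66 ± 0.13 (SE) on the log2 scale, with an adjusted p of 0.0016, and passed the threshold in all 14 alternatives run. Foxa2, the related forkhead gene that restrains goblet differentiation, was chosen after its values were seen. It had a log2 change of 0.38 (adjusted p = 0.193), from 22.0 and 22.3 FPKM to 30.1 and 27.6 FPKM. Il13, the cytokine that induces goblet metaplasia, was listed at 0 in every library.

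Folding, granule release and secreted co-products of mucus were taken next. Of 11 genes listed for protein folding, measured in whole lung and not in mucus cells alone, 0 rose and 1 fell (Agr3). Their median log2 change was 0.08, and it was −0.01 without Control 1 and 0.01 without Shh-Stk11 1. Of 8 tested genes of granule release, none passed the adjusted threshold in limma. At an unadjusted p under 0.05, 1 was lower, Rab27a, against 7.25% of all tested genes. Rab27a was at 24.0 and 19.2 FPKM in Control and at 11.9 and 15.5 FPKM in Shh-Stk11, with a log2 change of −0.66 (adjusted p = 0.146). The 2 most abundant of the 8, Vamp8 of the fusion machinery and Marcks, differed by −0.02 and −0.14 on the log2 scale. Of 12 secreted co-products in the table, 3 were tested, and none passed the threshold or an unadjusted p of 0.05 in limma. The 2 most abundant were Ltf (lactotransferrin), with a log2 difference of −0.19 and overlapping groups, and Bpifb1, a secreted airway protein. Bpifb1 was at 0.447 and 0.730 FPKM in Control and at 0.408 and 0.168 FPKM in Shh-Stk11, without overlap, with a log2 difference of −0.87 (adjusted p = 0.39). Of the 12, Clca1 (listed as Clca3), Tff1 and Tff3 were listed at 0 in all libraries, whereas Fcgbp, a mucus protein of goblet cells, was at 0.180 to 0.265 FPKM with overlapping groups.

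**Figure D4:**
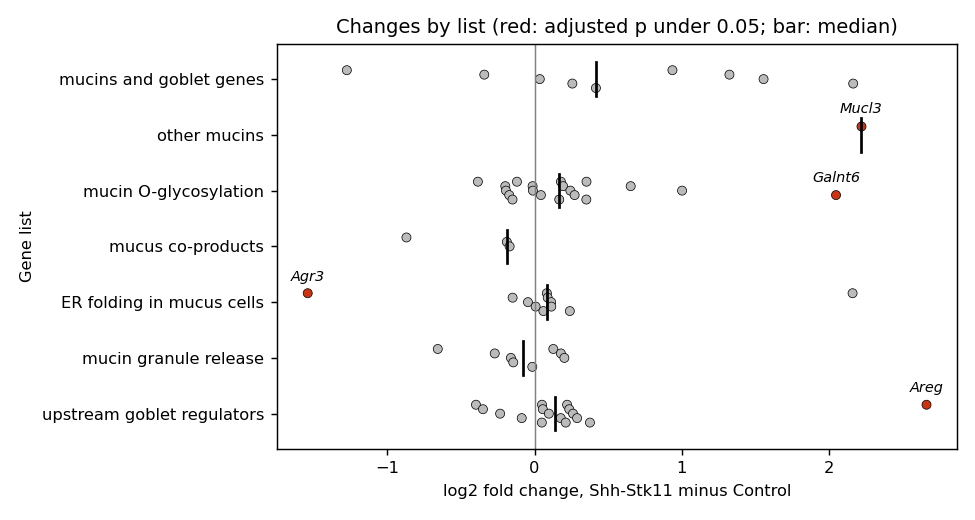
Log2 change of each tested gene, Shh-Stk11 minus Control, in the mucin and goblet set and in 6 related lists, with red for an adjusted p under 0.05 and a bar at the median of the list. Mucl3, Galnt6 and Areg lie at 2.05 to 2.66 and Agr3 at −1.54, while most genes of the related lists lie close to 0.

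The neighbours of the mucin genes on the chromosome were also measured. On chromosome 7 the RefSeq order is Ap2a2, Muc6, Muc2, Muc5ac, Muc5b and Tollip. The flanking genes Ap2a2 and Tollip had log2 differences of −0.07 and −0.05 (adjusted p = 0.845 and 0.864). Muc2 and Muc6, the intestinal and gastric gel-forming mucins, were below the filter and not tested. Muc2 was at 0.0250 and 0.0653 FPKM in Control and at 0.0771 and 0.0668 FPKM in Shh-Stk11. Muc6 was at 0.0560 and 0.123 FPKM in Control and at 0.0447 and 0.0491 FPKM in Shh-Stk11. The groups did not overlap for either, with Muc6 lower and Muc2, on an estimated 3 to 6 reads a library, narrowly higher in Shh-Stk11. Tnk2, on the other side of Muc4 from Muc20, differed by 0.02 (adjusted p = 0.959).

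Markers of the cells that could carry these transcripts were set beside them. The summed level of 9 club cell markers was 1146 and 1111 FPKM in Control and 914 and 1040 FPKM in Shh-Stk11. Of the 9, 1 fell, Upk3a, against 1.15% of all tested genes. Lower levels in Shh-Stk11 were measured for 6 of the 9, with 5 of them at an unadjusted p under 0.05 in limma, against 2 of the 3 higher ones. Over all tested genes the shares at this p were 7.25% lower and 7.81% higher. The median log2 change of the 9 was −0.54. Scgb3a2, a secretoglobin, was at 552 and 679 FPKM in Control and at 286 and 185 FPKM in Shh-Stk11 (adjusted p = 0.0502). Scgb1a1, the main club cell secretory protein, was measured at 221 and 102 FPKM in Control and at 312 and 471 FPKM in Shh-Stk11 (adjusted p = 0.158). Shh-Stk11 2 was the highest library for Scgb1a1, unlike for Muc5b. Of 9 ciliated cell markers 5 fell, against 1.15% of all tested genes, and the sum of the 9 went from 67.2 and 69.2 FPKM to 29.7 and 26.0 FPKM. Lower levels were fitted for 8 of the 9. Rfx3 went the other way without overlap, from 2.40 and 2.15 FPKM to 4.13 and 3.35 FPKM, with a log2 change of 0.69 (adjusted p = 0.149). The part of club or ciliated cells in the levels of the mucins and of Agr3 was not tested.

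Foregut and stomach markers were set beside Agr2. The sum of 9 such markers was 16.9 and 23.9 FPKM in Control, again with Control 2 on top, and 8.08 and 9.13 FPKM in Shh-Stk11. Of 5 tested, 2 fell, Cym (a gastric protease) and Gkn2, the other 3 had higher means in Shh-Stk11, and the median log2 change was 0.10. Tff1 was at 0 in all libraries. Cym was at 11.5 and 15.9 FPKM in Control and at 1.39 and 0.820 FPKM in Shh-Stk11. Without Cym the sums were 5.38 and 8.03 FPKM in Control and 6.69 and 8.31 FPKM in Shh-Stk11, so the groups overlapped. Krt13, an esophageal keratin, had a log2 difference of 1.34 (adjusted p = 0.0548). The part of such tissue in the level of Agr2 was not tested.

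Markers of the other cells of the lung gave few calls. Krt15 was the 1 of 4 tested basal cell markers that fell, and Hba-x the 1 of 6 red blood cell markers. None of 7 distal epithelial, 6 neuroendocrine, 9 mesothelial, 6 mesenchymal, 5 endothelial and 4 tested immune markers passed the adjusted threshold in limma. At an unadjusted p under 0.05, 1 distal, 2 neuroendocrine and 1 immune marker were higher (7.81% of all tested genes). At the same p, 5 mesothelial, 3 mesenchymal, 2 endothelial and 4 red blood cell markers were lower (7.25% of all tested genes). All 6 mesenchymal, 5 endothelial and 6 red blood cell markers had a lower fitted level in Shh-Stk11. All 7 general lung epithelium and 4 tested immune markers had a higher one. The red blood cell sum was 166 and 167 FPKM in Control and 97.7 and 101 FPKM in Shh-Stk11. The part of these cells in the mucin levels was not tested.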

How the data were processed

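Per the labels, total RNA of whole E16.5 lungs was sequenced, 2 libraries a genotype; per the methods, reads were single-end, 50 bases. The authors deposited FPKM per gene and library. The submitters' processing notes name TopHat2 2.0.13, Cufflinks 2.2.1 and the builds GRCm38 and mm9 without roles; the annotation and any scaling between libraries are not given in the sources used here. Sex and litter are not labelled, and the Shh-Stk11 pair holds a female and a male lung by its sex-linked genes. The p-values rest on the spread between these lungs, drawn toward that of other genes of similar level. The latter had more weight (4.35 prior against 2 residual degrees of freedom in limma).

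The 10 genes and all lists were chosen with earlier results of these data known. Symbols were matched to GENCODE M21 and RefSeq (20242 directly, 1904 by synonym, 410 unmatched) for lengths and names. The test took every gene averaging 0.1 FPKM or more across the libraries, on log2(FPKM + 0.1) with limma 3.58.1 in R 4.3.3 (lmFit, eBayes with trend, two-sided, Benjamini-Hochberg over 15501 genes). The filter is low because a long mucin transcript holds many reads at a low FPKM. The code was tested on simulated data. An exact permutation test of 2 against 2 cannot give a p below 0.333 and was not used.

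FPKM is no count. Among 1806 genes under 0.3 FPKM, 77.6% had values at whole multiples of a step (tolerance 0.02), from which depth and read numbers were estimated, taking 200 bases off the longest coding transcript. The read numbers are approximate, because they rest on an estimated depth and on the length of a single transcript per gene. Their counting error does not cover the spread between lungs.

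Named were the 10 genes, Stk11, of each related list the genes past the threshold (at most 4, largest changes) or else the 2 with the highest mean FPKM, and the 5 genes nearest to Muc5b; other genes in the text were picked with their values known. The alternatives were other pseudocounts, filters, scalings and variance models, removal of the length and GC trend, a replicate block and leaving out each library.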

Additional observations from a re-analysis of the deposited data

How the results depend on the processing

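Over 123 pairs of a gene and an alternative, the 9 mucin and goblet genes kept the direction of their log2 change in 120. The exceptions were Muc4, at −0.19 with the length and GC trend removed and −0.23 without Control 2 (−0.23 to 0.30 on leaving out a library), and Muc20, at 0.25 without Shh-Stk11 1 (−0.93 to 0.25). The filters, the variance model and the replicate blocks leave the fitted change itself unaltered, so the direction was fixed in those pairs. None of the 9 passed the threshold in limma, except without Shh-Stk11 2, where 2 did (Muc5b and Reg3g), and in the crossed pairing below, so the range on leaving out a library was 0 to 2.

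Without a filter 61 genes passed (20 higher, 41 lower), and no O-glycosylation or folding gene did (0 of each). Without a variance trend 56 were higher. Leaving out a library gave 33 to 154 genes in all, 12 to 54 higher and 21 to 100 lower. The same step left 0 to 1 calls among other mucins, 0 among O-glycosylation enzymes, 0 to 1 among folding genes and 1 among upstream regulators.

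The replicate numbers are not labelled as a litter or batch, and the deviations of same-numbered lungs correlated at −0.13 across genes. With the replicate block 5 genes passed (3 higher, 2 lower), with 0 among the 9, among other mucins, O-glycosylation and folding genes. With the numbers crossed, an alternative chosen after seeing the data, 715 genes passed (358 higher, 357 lower), with 4 of the 9, 2 O-glycosylation, 2 folding and 1 granule release gene. List medians ranged over the alternatives from 0.00 to 0.21 for O-glycosylation, from −0.01 to 0.12 for folding, from −0.14 to 0.03 for granule release and from 0.04 to 0.23 for upstream regulators. The cause of these shifts was not tested. Few reads stand behind Muc5b in Control and Muc20 in all libraries, and a group had 2 lungs.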
